A study of Homo sapiens with 6 samples.

Results

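NF-kB subunits, their inhibitors and a set of their inflammatory target genes were followed on 6 oligonucleotide arrays of A549 cells, a human lung adenocarcinoma line. The set held 34 named genes. A gene was taken from the probe sets, groups of short oligonucleotides on the array, whose annotation gave that symbol and no other, and was represented by its brightest one. This found 31 of the 34 genes, among 19775 genes with such a probe set. Array values of BIRC3 and CSF2 were not analysed here. BCL3 was left out because both of its probe sets also carried a microRNA gene's symbol. Of the 31 genes, 29 lay at or above the median brightness of the array and were tested among 12406 genes, and IL1A and CCL20 did not. The NME2-depleted group of 3 arrays came from cells transiently given small interfering RNA (siRNA) for NME2, a nucleoside diphosphate kinase that also binds DNA, and the control group of 3 from cells given control siRNA. Both groups were the same A549 line, no other treatment is named in the labels, and how long the siRNA acted was not stated. The series text and the methods name different suppliers for the duplexes. The arrays of a group, numbered 1 to 3, are called biological replicates in the series text, with nothing on separate cultures, and the p-values rest on the spread among them.

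NF-kB is a family of transcription factors built as dimers of RELA, RELB, REL and the products of NFKB1 and NFKB2. In resting cells inhibitor proteins such as IkB-alpha, encoded by NFKBIA, hold the dimers in the cytoplasm. Signals from tumour necrosis factor, interleukin-1 and Toll-like receptors activate the IkB kinase, the inhibitor is degraded and the dimers enter the nucleus, where they bind kB sites in promoters of chemokines, cytokines, adhesion molecules and of their own inhibitors. Airway and alveolar epithelial cells, A549 among them, are known to release neutrophil-attracting chemokines in this way.

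The NME2 probe set, which also covers the read-through transcript NME1-NME2, had signals of 1920.4, 3676 and 3216 in NME2-depleted cells and 17862, 19389 and 21045 in control cells. It was 6.85-fold lower (limma adjusted p = 0.00032), with no overlap of the groups. Keratins of epithelial cells were bright, with KRT8 between 14199 and 18803 and KRT18 between 27676 and 32107, whereas the lung transcription factor NKX2-1 lay under the brightness filter and SFTPC, a surfactant protein of alveolar cells, between 41.5 and 153.8. None of the 7 tested epithelial markers passed, but 3 separated the groups. Of all tested genes 10.1% were lower in every NME2-depleted array and 10.4% were higher in every one. EPCAM, an epithelial adhesion molecule, had 714, 837 and 547 in NME2-depleted cells and 431, 455 and 381 in control cells, was higher in every depleted array and had a difference of 0.71 (95% interval 0.37 to 1.06, limma adjusted p = 0.0884) on the log2 scale, with a lower p than any NF-kB gene described here. CDH1, the E-cadherin gene, was also higher in every one, at 0.21, and KRT8 was lower in every one, at -0.24. Of the leukocyte markers PTPRC, LYZ, MS4A1 and CD2 lay under the filter, and CD14 (191.9 to 349.5), ITGAM (84.1 to 150.4) and CD3E (49.9 to 120.1) passed it. The summed signal of the 7 leukocyte markers was 546.8 to 589.1 in NME2-depleted and 553.9 to 670.3 in control arrays. The summed signals of 6 fibroblast markers were 786.5 to 964.9 and 602.5 to 798.7, those of 5 endothelial markers 286.4 to 394.6 and 212.4 to 314.1, and none of the tested markers of these 3 lists passed. The part of other cell types in the results was not tested. On bulk arrays, fewer cells of a type and less RNA per cell cannot be told apart. One array stood apart for the genes described here. Control replicate 1 was the highest of the 6 arrays for 17 of the 29 tested members, so each member's difference is given below with and without it. Its ratio of 3' to 5' signal of ACTB, a sign of RNA quality, was the lowest of the 6 at 1.198. The ratio also separated the groups, at 1.326, 1.343 and 1.396 in NME2-depleted arrays and 1.198, 1.305 and 1.234 in control arrays. The part of this ratio in the results was not tested.

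The promoter stretches below are those of the 5 neutrophil chemokines, the role with the largest excess in control replicate 1, and of IL6 and the 2 feedback inhibitors NFKBIA and TNFAIP3. RefSeq promoter windows (GRCh38.p14) of 250 bases before to 50 bases from the start site on were at hand for 29 of the 34 genes, 43 windows in all. Stretches from 150 to 21 bases before the start site follow, 5′ to 3′ on the strand of the gene. Capitals mark matches, on either strand, to the NF-kB consensus, to the shorter kB motif GGAATTTCC, which overlaps it, to the AP-1 motif TGANTCA and to the TATA box motif TATAAA.
CXCL1, chr4:73869243-73869372, plus strand: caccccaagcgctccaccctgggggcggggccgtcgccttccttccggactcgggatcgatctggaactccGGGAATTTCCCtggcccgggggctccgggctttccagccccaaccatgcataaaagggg
CXCL2, chr4:74099216-74099345, minus strand: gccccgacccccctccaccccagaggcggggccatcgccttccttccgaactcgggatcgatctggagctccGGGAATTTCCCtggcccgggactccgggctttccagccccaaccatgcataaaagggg
CXCL3, chr4:74038710-74038839, minus strand: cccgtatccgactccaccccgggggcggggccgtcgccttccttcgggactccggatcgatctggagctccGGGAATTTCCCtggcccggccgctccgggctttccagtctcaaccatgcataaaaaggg
CXCL5, chr4:73998698-73998827, minus strand: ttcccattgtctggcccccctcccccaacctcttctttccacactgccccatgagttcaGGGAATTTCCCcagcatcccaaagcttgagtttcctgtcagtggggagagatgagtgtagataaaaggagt
CXCL8, chr4:73740419-73740548, plus strand: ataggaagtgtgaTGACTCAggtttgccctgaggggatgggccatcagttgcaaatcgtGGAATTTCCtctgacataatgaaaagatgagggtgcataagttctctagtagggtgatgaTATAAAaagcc
IL6, chr7:22727050-22727179, plus strand: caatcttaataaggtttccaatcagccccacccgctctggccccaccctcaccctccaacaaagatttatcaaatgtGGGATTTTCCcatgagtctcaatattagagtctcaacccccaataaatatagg
NFKBIA, chr14:35404770-35404899, minus strand: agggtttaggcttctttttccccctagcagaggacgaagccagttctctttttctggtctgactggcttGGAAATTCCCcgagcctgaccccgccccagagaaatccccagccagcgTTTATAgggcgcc
TNFAIP3, chr6:137867109-137867238, plus strand: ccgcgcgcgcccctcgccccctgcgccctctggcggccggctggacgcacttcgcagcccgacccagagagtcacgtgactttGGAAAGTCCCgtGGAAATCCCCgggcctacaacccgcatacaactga

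The windows of CXCL1, CXCL2 and CXCL3 held the same overlapping pair of kB matches 77 to 79 bases before the start site, and CXCL5 held it 90 and 91 bases before. CXCL8 had the shorter motif alone, at -91, with an AP-1 motif at -137 and a TATA box motif at -31. These 5 chemokine windows lie within 359 kb of chromosome 4. IL6 had a consensus match at -73, NFKBIA had 1 at -81 that the shorter motif overlaps, and TNFAIP3 had 2, at -67 and -55. In total 16 of the 43 windows (37.2%) held the NF-kB consensus, against 11.3% of all 35116 windows searched, which left out 1 chromosome. The genes were named as NF-kB subunits and targets, so a higher share is no independent result. Windows of BIRC2 overlap each other, as do those of IL1A, so the 43 are not independent. The shorter motif was in 9 of 43 (20.9%) and in 0.461% of all windows. The AP-1 motif was in 4 (9.30%, all windows 7.71%) and the TATA box motif in 7 (16.3%, all windows 11.5%). A match describes these letters only and was not tested for binding. No kB match was in the windows of RELA, TRAF1, BIRC2, IRAK2, SOD2, IL1A, IL1B, CSF2, TNFAIP2, TNFAIP6, PTGS2 and PLAU. This says only that these letters are not in them.

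**Figure D1:**
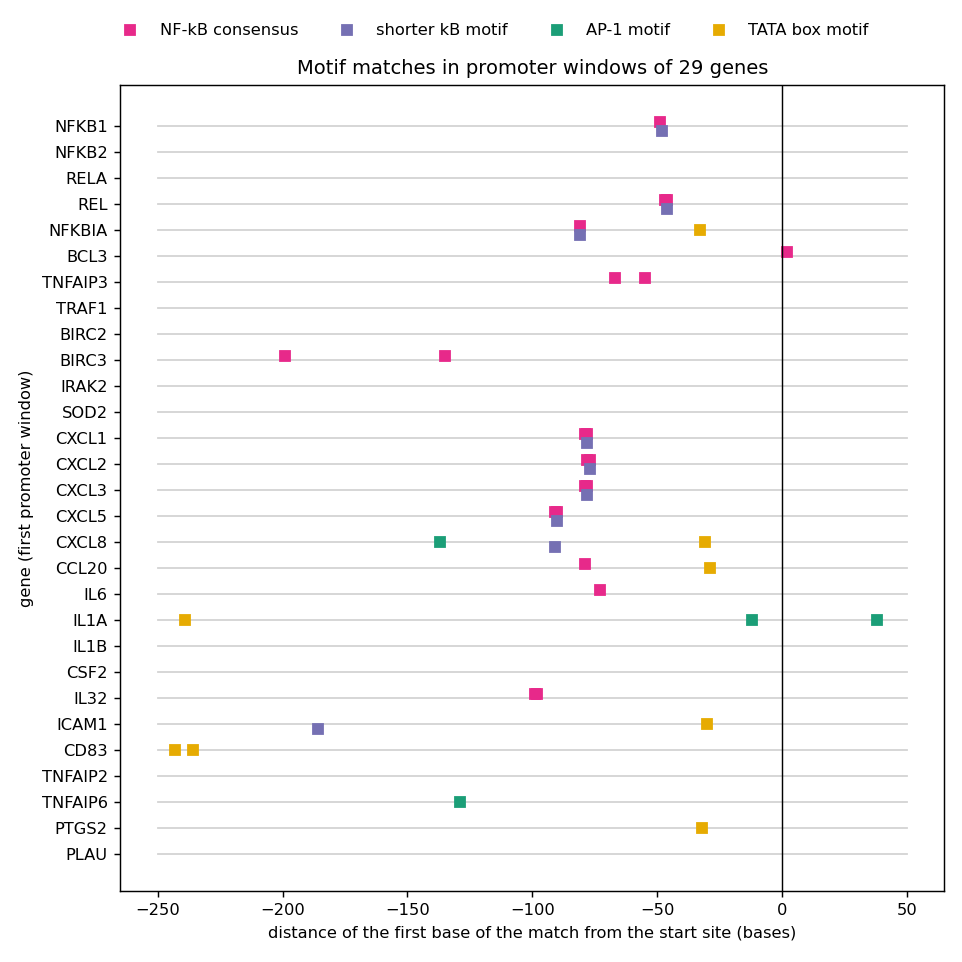
Motif matches in the first promoter window of 29 genes. The horizontal axis is the distance in bases of a match's first base from the start site (vertical line), each row is a gene and each square a match on either strand. The kB matches of CXCL1, CXCL2 and CXCL3 line up at 77 to 79 bases before the start site.

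None of the 29 tested members changed past the threshold when NME2 was silenced (0 by limma, Benjamini-Hochberg adjusted p under 0.05 over all 27307 tested probe sets), where 0.54% of the 12406 tested genes did. The lowest adjusted p of a member was 0.150, for TNFAIP2. At an unadjusted p under 0.05 there were 3 members, TNFAIP2, PTGS2 and IL6, all lower in NME2-depleted cells, against 15% of all tested genes. The methods' t-test gave 2 members at that level, NFKB1 and TNFAIP2, and 0 after adjustment, where 12.9% of genes passed the unadjusted level. Differences below are log2 signal in NME2-depleted minus control cells. They ran from -0.65 (IL6) to 0.39 (CD83). The mean was lower in NME2-depleted cells for 19 members and higher for 10, with a median difference of -0.14, and 49.8% of all tested genes had a lower mean (median difference 0.00064). These signs are those of the brightest probe sets. Of the 18 other tested probe sets of members, 9 had the sign of the brightest and 9 the opposite sign. The lean to lower means was absent without control replicate 1, an array singled out as the highest for 17 of these members. Leaving it out raises the difference of each of those by construction, so the shift is no independent result. Without that array 12 of the 29 members had a lower mean, the median was 0.06, and 51.8% of all genes were lower with a median of -0.0082. The arrays of the groups did not overlap for 4 members. NFKB1, CXCL1 and TNFAIP2 were lower in every NME2-depleted array, where 10.1% of all genes were, and CD83 was higher in every one, where 10.4% were. For each of these 4 the exact two-sided permutation test gave its smallest possible p, 0.1.

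**Figure D2:**
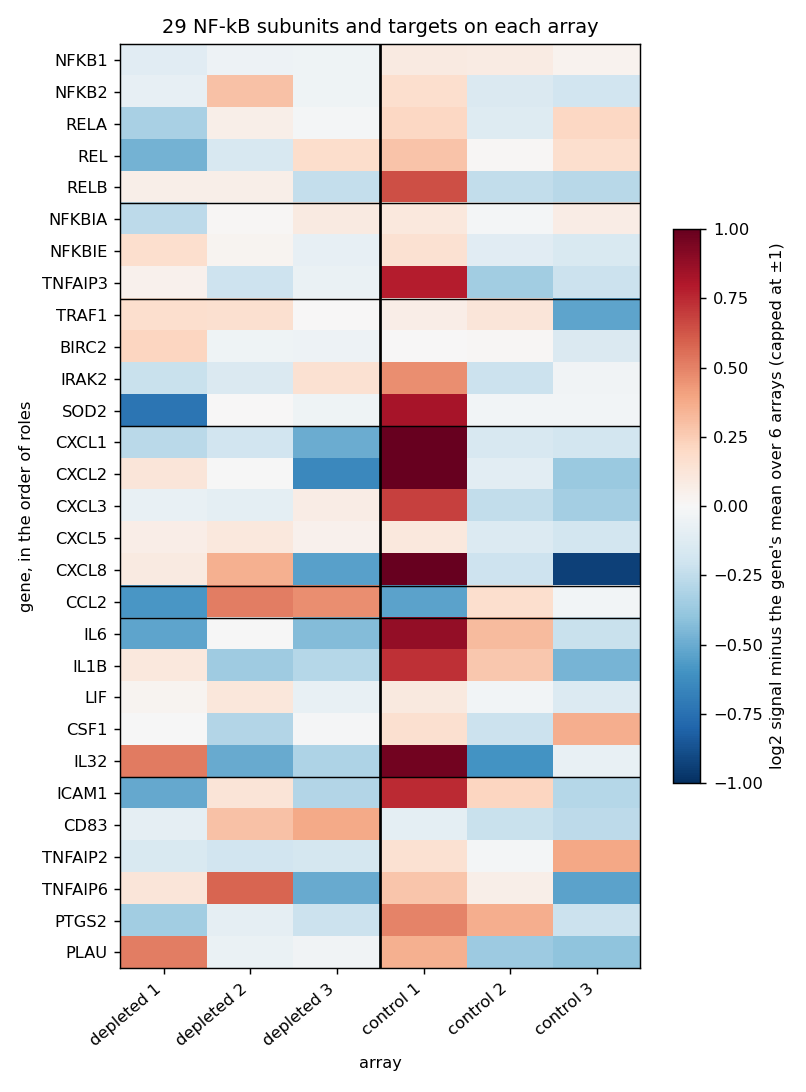
Signals of the 29 tested members on each array. Columns are arrays, rows are genes in the order of their roles, and colour is the log2 signal minus the gene's mean over the 6 arrays, capped at 1 in either direction. Control replicate 1 is mostly red, as the highest array for 17 members, whereas CCL2 was low there.

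Among the subunits, transcripts of NFKB1, which encodes the precursor of p50, had signals of 919, 957 and 964 in NME2-depleted cells and 1056, 1051 and 1019 in control cells. All 3 depleted arrays lay under the 3 control arrays, and the difference was small, at -0.14 (SE 0.09, 95% interval -0.33 to 0.05, limma adjusted p = 0.542). Leaving out control replicate 1 gave -0.13. RELA, the main transactivating subunit, had 1331, 1731 and 1639 in NME2-depleted cells and 1921, 1519.5 and 1919.7 in control cells. Its groups overlapped, with a difference of -0.19 (95% interval -0.46 to 0.08, limma adjusted p = 0.558), or -0.13 without control replicate 1, and its other probe set gave -0.17. Without NME2-depleted replicate 1 the difference was -0.08. REL, best known from lymphoid cells, had 399, 495 and 626 in NME2-depleted cells and 673, 558 and 623 in control cells. NME2-depleted replicate 1 was the lowest and NME2-depleted replicate 3 lay within the control range. The difference was -0.31 (95% interval -0.66 to 0.04, limma adjusted p = 0.448), or -0.24 without control replicate 1, but the 2 other tested probe sets of REL gave 0.04 and 0.09.

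Both subunits of the non-canonical branch changed sign when 1 array was left out. NFKB2, which encodes the precursor of p52, had 481, 624 and 493 in NME2-depleted cells and 573, 459.8 and 445 in control cells. The groups overlapped, the difference was 0.11 (95% interval -0.21 to 0.43, limma adjusted p = 0.799), and its other tested probe set gave -0.03. It was 0.23 without control replicate 1 and -0.0073 without NME2-depleted replicate 2. RELB, the partner of p52, had 427, 426 and 346 in NME2-depleted cells and 640.4, 344 and 337 in control cells. Control replicate 1 was the highest array and was 1.88-fold the geometric mean of the other control arrays. The difference was -0.08 (95% interval -0.58 to 0.42, limma adjusted p = 0.919) with that array and 0.22 without it, and it was 0.02 without NME2-depleted replicate 3.

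None of the 3 tested inhibitors passed, and TNFAIP3 differed most between control arrays. NFKBIA, the IkB-alpha gene, was read at 5186, 6266 and 6620.3 in NME2-depleted cells and 6701, 6152 and 6563 in control cells. Apart from the lowest array, NME2-depleted replicate 1, the values overlapped, and the difference was -0.11 (95% interval -0.31 to 0.09, limma adjusted p = 0.661), or -0.08 without control replicate 1. It was -0.0060 without NME2-depleted replicate 1. NFKBIE, the IkB-epsilon gene, had 376, 341 and 316 in NME2-depleted cells and 371, 308 and 299.8 in control cells. Replicate 1 was the highest array in both groups, and the difference was 0.08 (95% interval -0.24 to 0.41, limma adjusted p = 0.861), or 0.18 without control replicate 1. TNFAIP3 encodes A20, a ubiquitin-editing enzyme that ends NF-kB signalling, and had 411, 347 and 382 in NME2-depleted cells and 689, 314 and 344 in control cells. Control replicate 1 was 2.1-fold the other control arrays, and the remaining 5 arrays lay between 314.0 and 411. The difference of -0.15 (95% interval -0.70 to 0.40, limma adjusted p = 0.846) turned to 0.21 without that array. The second TNFAIP3 probe set had 110.4, 138 and 111 in NME2-depleted cells and 289, 146 and 151 in control cells. Its groups did not overlap, the difference was -0.64 and the limma adjusted p was 0.368, so it missed the threshold as well.

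None of the 4 adaptor and survival genes passed. BIRC2, the cIAP1 ubiquitin ligase of receptor complexes, had 3587, 3001 and 2989 in NME2-depleted cells and 3093, 3111 and 2799 in control cells. The groups overlapped, and the difference was 0.09 (95% interval -0.11 to 0.28, limma adjusted p = 0.738), or 0.11 without control replicate 1. TRAF1, an adaptor of tumour necrosis factor receptors, had 155, 154 and 138 in NME2-depleted cells and 144, 149 and 95.5 in control cells, with a difference of 0.23 (95% interval -0.30 to 0.75, limma adjusted p = 0.741), or 0.31 without control replicate 1. The groups overlapped, and control replicate 3 was the lowest array, without which the difference was 0.02. IRAK2, a kinase of the interleukin-1 receptor pathway, had 1066, 1126 and 1387 in NME2-depleted cells and 1722, 1076 and 1213 in control cells. Control replicate 1 was 1.51-fold the other control arrays, and the difference was -0.14 (95% interval -0.50 to 0.21, limma adjusted p = 0.758) with it and 0.05 without it. SOD2, the mitochondrial superoxide dismutase, had 323, 538 and 522 in NME2-depleted cells and 949, 527 and 525 in control cells by its 1 probe set with a single symbol. The 4 other SOD2 probe sets also carry the symbol of an overlapping transcript and were not used. The highest array was control replicate 1 and the lowest NME2-depleted replicate 1, while the 4 others lay between 522 and 538. The difference was -0.51 (95% interval -1.05 to 0.03, limma adjusted p = 0.412), and -0.23 without control replicate 1. Without NME2-depleted replicate 1 it was -0.27.

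None of the 5 neutrophil chemokines passed, and as a group they had the largest excess in control replicate 1 of the 7 roles. CXCL1, a ligand of the receptor CXCR2, had 753, 795.0 and 641 in NME2-depleted cells and 2229, 810.3 and 795.4 in control cells. The groups just failed to overlap, and control replicate 1 was 2.78-fold the other control arrays. The difference was -0.63 (SE 0.31, 95% interval -1.32 to 0.05, limma adjusted p = 0.424) with all arrays and -0.14 without that one. CXCL2, its close relative, had 1549.7, 1421 and 911 in NME2-depleted cells and 2869, 1323 and 1103 in control cells. Control replicate 1, 2.37-fold the other control arrays, again stood above all others, and the difference went from -0.35 (95% interval -1.02 to 0.31, limma adjusted p = 0.674) to 0.06 without it. CXCL3 had 514, 507 and 573 in NME2-depleted cells and 871, 458 and 428 in control cells. Here the depleted arrays lay above control replicates 2 and 3 and below control replicate 1, so that the difference of -0.06 (95% interval -0.56 to 0.43, limma adjusted p = 0.937) became 0.26.

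CXCL8, which encodes interleukin-8, had the widest interval of the 29 members. Its signals were 1642, 1980.2 and 1062 in NME2-depleted cells and 3654, 1339 and 808 in control cells. Control arrays spanned the whole range, from the lowest to the highest array, and control replicate 1 was 3.51-fold the other control arrays. The difference was -0.07 (95% interval -0.997 to 0.87, limma adjusted p = 0.968), and 0.54 without control replicate 1. The second CXCL8 probe set had 409, 426 and 304 in NME2-depleted cells and 933, 282 and 204 in control cells and showed the same order of control arrays. CXCL5, a further ligand of CXCR2, had 10085, 10359.7 and 9899 in NME2-depleted cells and 10359, 8776 and 8484 in control cells. By this bright probe set control replicate 1 lay level with the depleted arrays, and the difference was 0.14 (95% interval -0.04 to 0.32, limma adjusted p = 0.501), or 0.23 without it. A second CXCL5 probe set had 1494, 1641 and 1441 in NME2-depleted cells and 2443, 1607 and 1222 in control cells. There control replicate 1 was the highest array, and the difference was -0.15. The brightest probe sets of CXCL2, CXCL5 and CXCL8 are of the kind that shares oligonucleotides with similar transcripts, so signals of these relatives are not fully separate.

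Of the chemokines for mononuclear cells only CCL2 was bright enough to be tested. CCL2, which attracts monocytes, had 652, 1393 and 1349 in NME2-depleted cells and 676, 1099.9 and 961 in control cells. Replicate 1 was the lowest array in both groups, at 652 and 676, and the difference was 0.26 (95% interval -0.32 to 0.84, limma adjusted p = 0.733). It was 0.06 without control replicate 1 and 0.62 without NME2-depleted replicate 1. CCL20, which attracts CCR6-bearing lymphocytes and dendritic cells, had signals of 2.5 to 18.6, under the filter. Its highest array was control replicate 1, at 5.21-fold the other control arrays. At this brightness a signal cannot be told from background without detection calls.

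**Figure D3:**
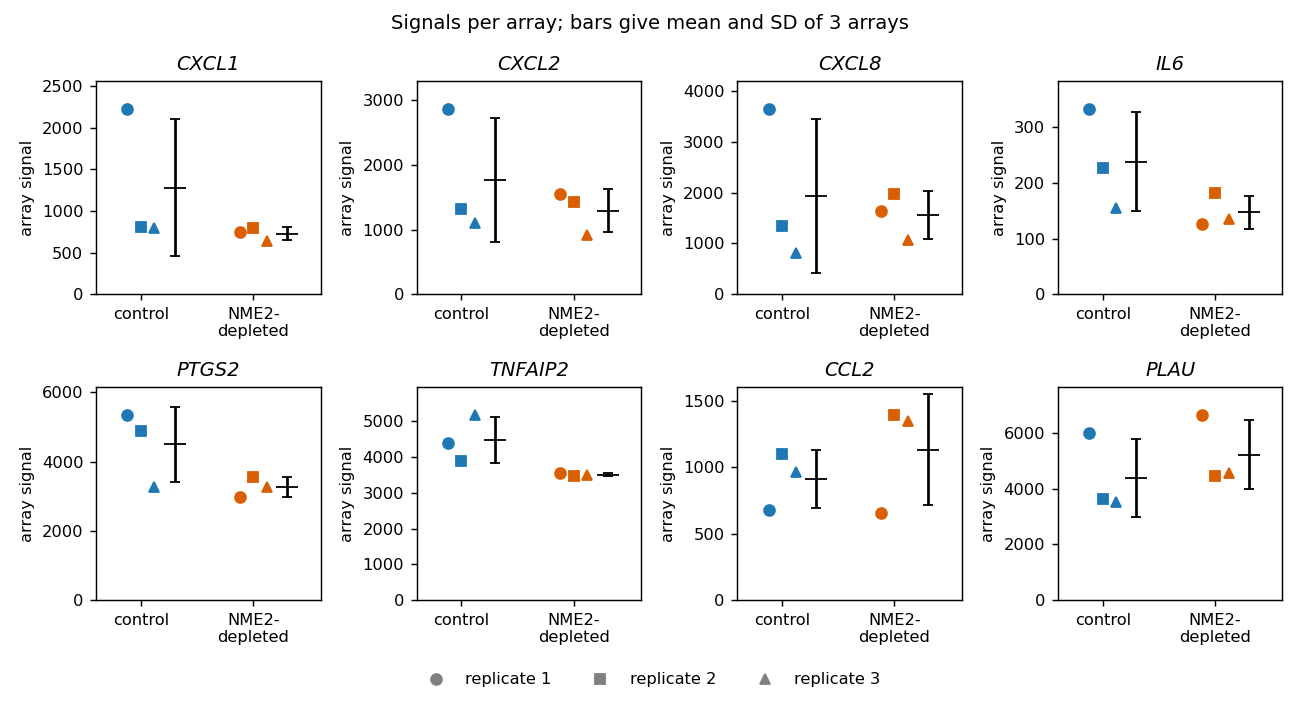
Array signals of 8 members. The vertical axis is the signal on a linear scale, symbols mark replicates 1 to 3 of each group, and the bar beside each group marks mean ± SD (n = 3). CXCL1, CXCL2 and CXCL8 were highest in control replicate 1, at 2229, 2869 and 3654, whereas TNFAIP2 was lower in all 3 NME2-depleted arrays.

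Of the cytokines, IL6, an inducer of the acute phase response, had 126, 181 and 135 in NME2-depleted cells and 334, 227 and 156 in control cells. The order was control replicate 1, then control replicate 2, with control replicate 3 inside the range of the depleted arrays. The mean signal was 147 ± 29.8 in NME2-depleted and 239 ± 89.6 in control cells (SD, n = 3). The difference of -0.65 (SE 0.28, 95% interval -1.25 to -0.04, limma adjusted p = 0.359) was the largest decrease of the 29 members in the 6 arrays and did not pass. It was -0.37 without control replicate 1. IL1B, an interleukin-1 ligand, had 98.1, 71.4 and 74.9 in NME2-depleted cells and 151, 109.9 and 66.3 in control cells. Its groups overlapped, and the difference was -0.36 (95% interval -1.09 to 0.38, limma adjusted p = 0.707), with -0.26 by its other probe set. Control replicate 1 stood at 1.77-fold the other control arrays, and without it the difference was -0.08. IL1A, the second interleukin-1 ligand, lay under the filter, at 30.8 to 76.6. IL32, a cytokine without a known family, had 265, 131 and 149.8 in NME2-depleted cells and 361, 122 and 176 in control cells. Replicate 1 was the highest array in both groups, and the difference of -0.19 (95% interval -1.02 to 0.63, limma adjusted p = 0.873) became 0.24 without control replicate 1.

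Neither growth factor passed. LIF, an IL-6 family cytokine, had 2015, 2132 and 1877 in NME2-depleted cells and 2114, 1940.2 and 1802 in control cells. Its groups overlapped, with a difference of 0.04 (95% interval -0.15 to 0.23, limma adjusted p = 0.882), or 0.10 without control replicate 1. CSF1, the macrophage growth factor, had 1331, 1089 and 1322 in NME2-depleted cells and 1489, 1149 and 1712 in control cells. The highest array was control replicate 3, and the difference was -0.20 (95% interval -0.51 to 0.10, limma adjusted p = 0.588), or -0.18 without control replicate 1. The 3 other tested probe sets of CSF1 gave 0.03, 0.21 and 0.07.

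The effectors included TNFAIP2 and PTGS2, the members of lowest p, although none of the 6 passed. TNFAIP2, an inducible protein linked to membrane protrusions, had 3545, 3463 and 3491 in NME2-depleted cells and 4379, 3891 and 5165 in control cells. The depleted arrays lay close together, at 3499.8 ± 41.9, and under every control array, at 4478 ± 643 (SD, n = 3). The difference was -0.35 (SE 0.10, 95% interval -0.56 to -0.14, limma adjusted p = 0.150), or 1.27-fold lower. It did not rest on control replicate 1, since it was -0.36 without it. Over the 6 arrays left out in turn it ran from -0.44 to -0.24, and the limma adjusted p from 0.120 to 0.328, so it missed the threshold each time. The dimmer second probe set of TNFAIP2 overlapped between groups, with -0.28. PTGS2, the inducible cyclooxygenase COX-2, had 2970.1, 3559 and 3267 in NME2-depleted cells and 5348, 4881 and 3263 in control cells. Control replicates 1 and 2 were above all depleted arrays, and control replicate 3 lay among them. The difference was -0.43 (SE 0.15, 95% interval -0.77 to -0.10, limma adjusted p = 0.262), -0.29 without control replicate 1, and -0.34 by the second probe set. Without control replicate 3, the lowest control array, it was -0.65 with a limma adjusted p of 0.0514, the closest of any member to the threshold.

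ICAM1, the adhesion molecule that leukocytes bind, had 106, 165 and 123 in NME2-depleted cells and 253, 175 and 124 in control cells. Its signal in control replicate 1 was 1.72-fold that of the other control arrays, the groups overlapped, and the difference was -0.45 (95% interval -1.08 to 0.18, limma adjusted p = 0.552). The other 2 probe sets were lower too, at -0.36 and -0.18, and without control replicate 1 the brightest one gave -0.19. CD83, a surface glycoprotein of mature dendritic cells, had 102, 133 and 141 in NME2-depleted cells and 101.1, 92.8 and 90.1 in control cells. All depleted arrays lay above the control arrays, the nearest by 101.6 against 101.1, and the difference was 0.39 (95% interval -0.15 to 0.92, limma adjusted p = 0.547), or 0.44 without control replicate 1. TNFAIP6, a secreted hyaluronan-binding protein, had 401, 553 and 260 in NME2-depleted cells and 449, 386 and 256 in control cells. The groups overlapped, with 0.13 (95% interval -0.47 to 0.72, limma adjusted p = 0.885), or 0.30 without control replicate 1, and its other probe set gave -0.27. PLAU, the urokinase protease, had 6639.7, 4463 and 4551 in NME2-depleted cells and 5986, 3628 and 3533 in control cells. Replicate 1 was the highest array of each group. Its difference of 0.27 (95% interval -0.16 to 0.70, limma adjusted p = 0.610) became 0.52 without control replicate 1 (limma adjusted p = 0.195). It was 0.08 without NME2-depleted replicate 1, and the other PLAU probe set gave 0.28.

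**Figure D4:**
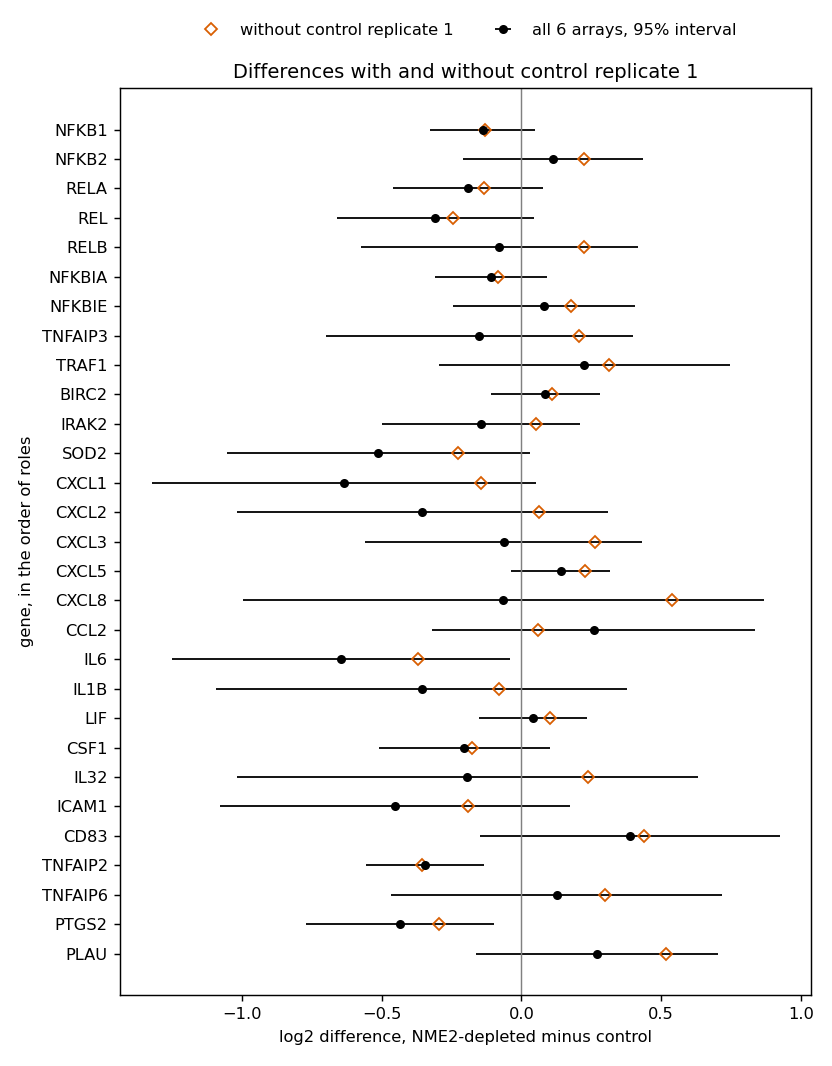
Differences of the 29 tested members on the log2 scale (horizontal axis, NME2-depleted minus control). Filled points are values from 6 arrays with their 95% intervals, and open diamonds are values without control replicate 1. The intervals of IL6, TNFAIP2 and PTGS2 leave out 0 before adjustment, and the median moves from -0.14 to 0.06 without control replicate 1.

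The excess of control replicate 1 was described by counts. Of the 29 members 13 were at least 1.5-fold above the geometric mean of the other control arrays in that array, where 2.6% of all tested genes were. These were RELB, TNFAIP3, IRAK2, SOD2, CXCL1, CXCL2, CXCL3, CXCL8, IL6, IL1B, IL32, ICAM1 and PLAU. In each of the other 5 arrays, set against the remaining arrays of its group in the same way, 0 or 1 member was, and between 2.22% and 2.64% of all genes were. Control replicate 1 was the highest array for 17 members (58.6%) and for 15.6% of all genes, and its median over the other control arrays was 0.42 on the log2 scale for members and -0.01 for all genes. By role the median was 1.25 for neutrophil chemokines, 0.83 for cytokines and growth factors, 0.47 for surface and secreted effectors, 0.43 for adaptor and survival genes, 0.29 for inhibitors and 0.19 for subunits. Of the 18 other tested probe sets of members, 9 were highest in that array. CCL2, the 1 tested chemokine for mononuclear cells, was at -0.60. No test was made of this measure. None of the 29 members passed without control replicate 1 either, with a lowest adjusted p of 0.195 and 3 members at an unadjusted p under 0.05, against 0.314% and 13.8% of all genes.

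No gene upstream of NF-kB passed. In the IkB kinase list 0 of 6 tested genes passed. CHUK, the IKK-alpha subunit, had 1166, 1096 and 1216 in NME2-depleted cells and 1049.8, 1019.7 and 911 in control cells and was higher in every depleted array, at 0.22 (95% interval 0.02 to 0.43, limma adjusted p = 0.352). MAP3K14, the kinase of the non-canonical branch, and IKBKE had differences of 0.10 and -0.14. Among 8 tested receptors 0 passed as well. TNFRSF1A, the main receptor of tumour necrosis factor, had 3564, 3993 and 3420.4 in NME2-depleted cells and 4015, 4387 and 5787 in control cells, and LTBR, the lymphotoxin-beta receptor, had 3035, 2811 and 2998 in NME2-depleted cells and 3396, 3185 and 3487 in control cells. Both were lower in every depleted array, as 10.1% of all genes were. Their differences were -0.36 (95% interval -0.62 to -0.09, limma adjusted p = 0.249) and -0.19 (95% interval -0.35 to -0.03, limma adjusted p = 0.310), and TNFRSF10A, a death receptor, gave 0.32. TNFRSF1B, TLR2 and TLR4 lay under the filter. Of 12 tested receptor adaptors 0 passed. MAP3K7, the kinase TAK1 that activates the IkB kinase, had 741, 766 and 715 in NME2-depleted cells and 1034, 1053 and 843 in control cells. Its groups did not overlap, and the difference was -0.39 (SE 0.11, 95% interval -0.63 to -0.15, limma adjusted p = 0.155). RBCK1, a part of the linear ubiquitin ligase, and TRAF6, a ubiquitin ligase of the interleukin-1 pathway, had -0.17 and -0.28. RIPK1, TRAF2 and IRAK4 were not analysed here.

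Other inhibitors and targets gave no call either. Of 8 tested IkB proteins and negative regulators 0 passed and 7 had a lower mean. CYLD, a deubiquitinase that restrains the pathway, had a difference of -0.40 (95% interval -0.80 to -0.0029, limma adjusted p = 0.384). NFKBIZ, an inducible nuclear IkB protein, had 511, 559 and 543 in NME2-depleted cells and 1011, 573 and 581 in control cells, where control replicate 1 was 1.75-fold the other control arrays, and TNIP2 had -0.15. In the list of 20 other NF-kB targets 12 were tested and 0 passed. C3, the central complement component, had 970.2, 1839 and 1251 in NME2-depleted cells and 2277, 2584 and 1963 in control cells, and LCN2, the iron-scavenging lipocalin, had 254, 313 and 265 in NME2-depleted cells and 464, 375 and 418 in control cells. Every depleted array was lower than every control array for both, and control replicate 1 lay near the other control arrays, at 1.01-fold for C3 and 1.17-fold for LCN2. The differences were -0.79 (SE 0.19, 95% interval -1.21 to -0.37, limma adjusted p = 0.111) and -0.59 (SE 0.15, 95% interval -0.92 to -0.27, limma adjusted p = 0.117). Without NME2-depleted replicate 2 the difference of C3 was -1.04 and passed (limma adjusted p = 0.0327). TNFAIP8, an apoptosis regulator, had 2216, 2035 and 1816 in NME2-depleted cells and 1797, 1547 and 1277 in control cells and was higher in every depleted array, at 0.40 (95% interval 0.13 to 0.67, limma adjusted p = 0.198). Over the 5 lists 46 of 63 genes were tested, 26 had a lower mean, the median difference was -0.04 and 10 had an unadjusted p under 0.05, 6 lower and 4 higher, against 15% of all genes. The share highest in control replicate 1 was 14 of 46, where 15.6% of all tested genes were. There 4 were at least 1.5-fold above the other control arrays, where 2.6% of all tested genes were.

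**Figure D5:**
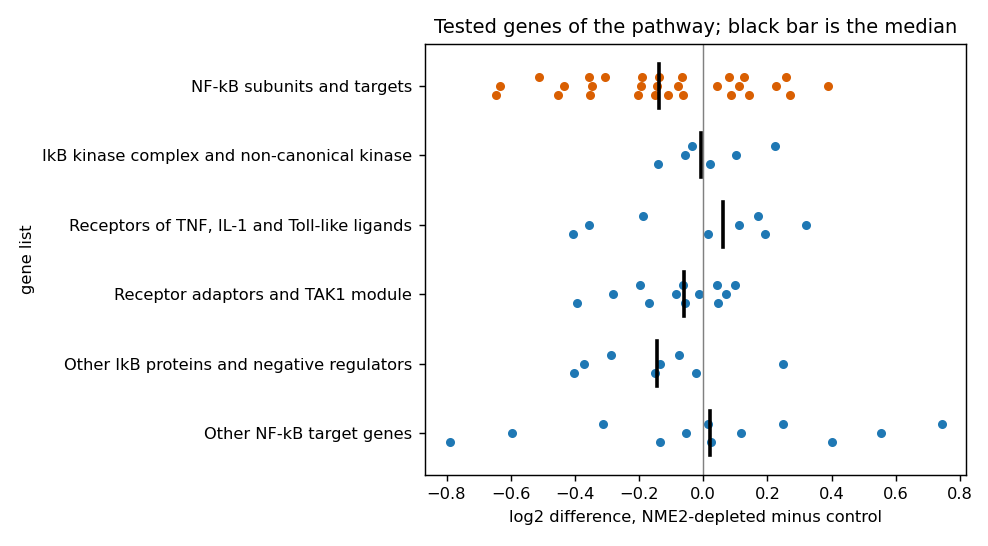
Differences on the log2 scale (horizontal axis, NME2-depleted minus control) of the tested members (top row) and of 5 lists of other pathway genes. Each point is a gene, rows within a list are spread only for legibility and the black bar is the median. The member median lies at -0.14, and C3, at -0.79, is the lowest point among the other targets.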

How the data were processed

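The authors hybridised biotin-labelled cRNA of each sample to 1 Affymetrix HG-U133 Plus 2.0 array. GCOS 1.1.1, per the submitters' processing notes, gave the deposited linear intensity of each probe set. Trimmed means (2% at each end) were 500.06 to 500.07 on all 6 arrays, so the arrays had been scaled to a common mean, which would hide a shift shared by all transcripts. No detection calls or scans were analysed here. The number of arrays limits the precision.

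After 62 control probe sets were left out, signals under 1 were set to 1 and log2 was taken. The brighter part of the probe sets (mean log2 over the 6 arrays not under the median, a signal of 71.7, 27307 of 54613) entered a limma fit (version 3.58.1, R 4.3.3, intensity trend, Benjamini-Hochberg over all tested probe sets, two-sided, threshold 0.05). Symbols came from the platform annotation of 2016. Single values were also compared by an exact permutation test, whose smallest p is 0.1. In simulated data with 200 of 27307 probe sets changed, 18% of 1.5-fold, 52% of 2-fold and 88.5% of 4-fold changes were recovered. Members and lists were chosen with earlier results of these data known. All members are named, each tested one with its value on every array, and of each list of other pathway genes the 3 of lowest p. Promoters are RefSeq's. Alternatives were other scalings, an offset, other filters, no trend, weighting of arrays, a replicate block, leaving out shared probe sets, averaging probe sets by gene, each array left out and the methods' t-test.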

Additional observations from a re-analysis of the deposited data

How the results depend on the processing

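With adjustment 0 members were called under each alternative run, and 0 of 472 values of single members under alternatives passed an adjusted p of 0.05. The lowest was 0.0514, for PTGS2 without control replicate 3. By the methods' t-test at an unadjusted p under 0.05, 2 members, 7 other pathway genes and 3065 probe sets passed. The count of probe sets called, 108, was 30 with no filter, 192 with the filter at the 75th percentile, 62 with shared probe sets left out, 0 with no intensity trend (limma, 3130 at an unadjusted p under 0.05), 0 by the methods' t-test after adjustment, and 8 to 63 with 1 array left out. The median member difference of -0.14 lay between -0.19 and -0.10 under the alternatives that kept all arrays, and ran from -0.22 to 0.06 with 1 array left out, the latter without control replicate 1. Other pathway genes called were 0 to 1 with 1 array left out, C3 without NME2-depleted replicate 2.

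With the replicate block 464 probe sets, 0 members and 2 other pathway genes passed, C3 and TNFAIP8 (adjusted p = 0.0233 and 0.0378), and the median member difference was -0.14. The numbers were not shown to pair the arrays. Deviations from the group means correlated at 0.11, 0.08 and 0.07 for numbers 1, 2 and 3, and each array correlated best with its own number, as a hint from the data only. The block changed no other call among the members and named genes.

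The sign turned in 22 of the 472 member values. With shared probe sets left out NFKB2 was -0.032 and CXCL5 -0.34, with probe sets averaged by gene CXCL5 was -0.12, CSF1 0.025, TNFAIP6 -0.070 and, among other pathway genes, LTBR 0.062 and TNIP2 0.018, and with median centring LIF was -0.0063. With 1 array left out the ranges that crossed 0 were NFKB2 (-0.0073 to 0.23), RELB (-0.24 to 0.22), TNFAIP3 (-0.36 to 0.21), BIRC2 (-0.0014 to 0.13), IRAK2 (-0.29 to 0.053), CXCL2 (-0.63 to 0.062), CXCL3 (-0.25 to 0.26), CXCL8 (-0.55 to 0.54), LIF (-0.014 to 0.10), IL32 (-0.54 to 0.24), TNFAIP6 (-0.13 to 0.41) and MAP3K14 (-0.023 to 0.21). The cause was not tested. With 3 arrays a group, simulated 1.5-fold changes were recovered in 18% of cases. The changed probe sets were drawn from all tested ones, so across these, changes of that size would mostly be missed. For single members the SE of the difference ran from 0.08 to 0.42, and the share was not simulated for them.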

Other observations

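Of the other pathway genes 12 lay under the brightness filter, and none passed when no filter was applied (0 by limma). Control replicate 1 was the highest array for 7 of the 12, and for 15.6% of all tested genes. How often genes under the filter have that array highest, or have groups that do not overlap, was not counted. TNF, the ligand that starts the canonical pathway, had signals of 20.8, 9.2 and 30.6 in NME2-depleted cells and 57.6, 26.9 and 15.9 in control cells. CCL5, a T cell chemokine, had 48.9, 73.5 and 74.2 in NME2-depleted cells and 118, 44.6 and 58.7 in control cells, and CXCL6, a further neutrophil chemokine, had 37.1, 48.1 and 46.9 in NME2-depleted cells and 94.9, 56.1 and 16.5 in control cells. These 3 were among the 7. RNF31, the catalytic part of the linear ubiquitin ligase, had 34.6, 23.1 and 17.2 in NME2-depleted cells and 108, 88.7 and 62.1 in control cells, and TLR4, the receptor of lipopolysaccharide, had 48.5, 50.4 and 50.8 in NME2-depleted cells and 76.2, 87.2 and 57.2 in control cells. Both were lower in every NME2-depleted array. SELE, an adhesion molecule of activated endothelium, had 15.3, 24.7 and 44.5 in NME2-depleted cells and 14, 11.5 and 10.6 in control cells and was higher in every one. Genes in this paragraph were chosen after their values were seen, and at this brightness a signal cannot be told from background without detection calls.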
